A study of Homo sapiens with 3 samples.

Results

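The clustered protocadherin genes were taken as the gene names in the deposited values that begin with PCDHA, PCDHB or PCDHG, leaving out names that end in P. The rule gave 55 of 23284 gene names, with 15 in the alpha cluster, 18 in the beta cluster and 22 in the gamma cluster. RNA-seq was performed on HEK293T cells (293T in the labels), a human embryonic kidney line that carries the SV40 large T antigen. All 3 libraries came from cells transiently transfected with dCas9-VP64, a Cas9 that binds but does not cut DNA joined to a transcriptional activator. The mock library received the guide vector without an L1 guide, and the other two received sgL1ASP #1 or sgL1ASP #3, guides against the antisense promoter (ASP) of the LINE-1 (L1) retrotransposon. Each condition had 1 library, so the differences below could not be checked against replicates and carry no p-values. Triplets of values are given in the order mock, sgL1ASP #1, sgL1ASP #3. The cells were a transfected population, in which fewer expressing cells and less RNA per cell cannot be told apart.

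Clustered protocadherins are cell adhesion proteins best known in the nervous system, where each neuron displays its own combination of isoforms and thereby tells its own branches from those of other neurons. In the alpha and gamma clusters, each gene has its own large first exon, which encodes the extracellular cadherin repeats and the membrane span, and this exon is spliced to a set of constant exons that encode the shared cytoplasmic tail. The beta genes lack constant exons. A promoter precedes each variable exon, most of these promoters carry a conserved element with the core CGCT, and CTCF and cohesin bind there and choose promoters by looping them to distal enhancers, while DNA methylation and SMCHD1 keep promoters silent.

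The 3 clusters lie side by side on chromosome 5, on the plus strand. In GENCODE 44 on GRCh37, the sequence also known as hg19, the alpha genes spanned chr5:140165721-140391932, the beta genes chr5:140430959-140628933 and the gamma genes chr5:140710081-140892544. The 30-base windows that follow show a CGCT before genes at the top and at the bottom of each cluster. Promoter choice is the step that decides which of these genes is transcribed. The sequences and positions are those of RefSeq on GRCh38.p14, plus strand, and capitals mark the CGCT that lies nearest to 60 bases before the annotated start. They are set beside the values further down, and a match is a description of the letters only. CGCT was present in 54.3% of all promoters, so a marked CGCT need not be the conserved element.
PCDHA12 (chr5:140875248-140875277): gtcacatgatgtCGCTctacactcagaagg
PCDHA4 (chr5:140806983-140807012): gccacatgatgtCGCTctttaccacaaaat
PCDHA1 (chr5:140786090-140786119): gccacatgatgtCGCTgtacaccacaaagt
PCDHB14 (chr5:141223267-141223296): gacacatggtggCGCTacaggataagacga
PCDHB2 (chr5:141094548-141094577): gacgcggggtggCGCTgcagccttagaagt
PCDHB15 (chr5:141245318-141245347): aacgcatggtggCGCTgcaggctaaggctt
PCDHB10 (chr5:141192303-141192332): gccacacggtggCGCTgcaggctaaagaga
PCDHB1 (chr5:141051278-141051307): ggggagttgagtCGCTcaatgcaaattttc
PCDHGA1 (chr5:141330407-141330436): gactgtgggcgcCGCTgttcactaatctgg
PCDHGA11 (chr5:141420976-141421005): ggctctaggcgcCGCTgctcaccaatcagg
PCDHGB4 (chr5:141387621-141387650): gactctgggcgcCGCTgttggccaaagtgg
PCDHGC4 (chr5:141484956-141484985): gagcccgggagcCGCTgtctgccaatcggg

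The RefSeq table held 52 promoters of 300 bases (250 before and 50 after the start) for 47 of the 55 genes. On the gene's strand, CGCT was present in 12 of 13 alpha promoters, 14 of 14 beta promoters and 25 of 25 gamma promoters, against 54.3% of all 35116 promoters. On either strand it was present in 70.0% of all promoters. The letters around the core differed between the clusters. GGTGGCGCT was present on the gene's strand in 13 of 14 beta promoters, in no alpha or gamma promoter and in 0.302% of all promoters, and PCDHB1 was the beta gene without it. GATGTCGCT was present in 9 of 13 alpha promoters, in no beta or gamma promoter and in 0.0740% of all promoters. In the gamma cluster, GCCGCTGTT was present in 7 and GTCGCTGTT in 6 of 25 promoters, against 0.191% and 0.105% of all promoters. These 4 longer words each contain CGCT and were chosen after the sequences were seen. A gene listed at 0 and a gene near the top of its cluster could carry the same word, as PCDHA1 and PCDHA12 or PCDHB10 and PCDHB14 show.

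The alpha and gamma genes share exons, and this limits how any level can be assigned to one gene. In the alpha cluster, the constant exons were chr5:140358534-140358592 (59 bases) and chr5:140362060-140362148 (89 bases), each in transcripts of 15 genes, and chr5:140389212-140391932 (2721 bases), with these exact ends in transcripts of 13 genes. PCDHA6 and PCDHA7 carry this last exon with an earlier end, at chr5:140391929. They shared 2866 bases, against 2869 in PCDHA8, for example. In the gamma cluster they were chr5:140874374-140874432 (59 bases), chr5:140884960-140885048 (89 bases) and chr5:140890514-140892542 (2029 bases), each in transcripts of 22 genes. All are on GRCh37. Of the exonic bases of a gene, 19.2% to 56.6% (median 46.6%) were shared with another member in the alpha cluster and 27.5% to 64.4% (median 43.8%) in the gamma cluster, while the beta genes shared 0%. A read of 75 bases that falls entirely in a constant exon fits every gene of its cluster that uses this exon, and the share each gene then receives is set by the estimation in Cuffdiff. The beta genes have separate exons but related sequences. Between 0% and 34.4% of the 75-base stretches of a beta gene's longest transcript occurred in another member, with PCDHB8 the highest, so the level of PCDHB8 is uncertain in the same way.

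**Figure D1:**
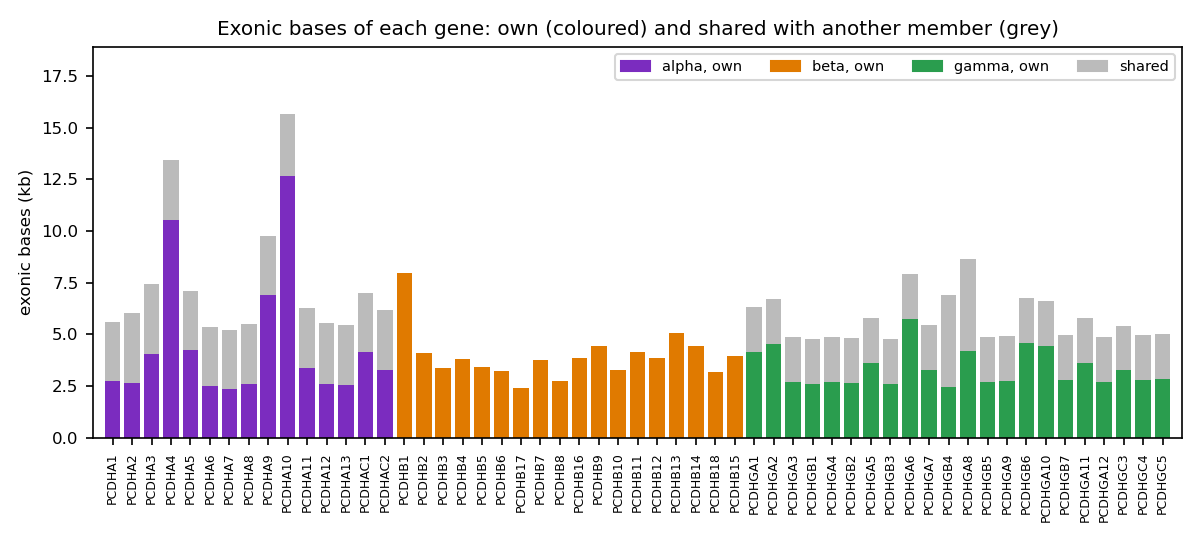
Exonic bases of each of the 55 genes in kilobases (y axis), in order along chromosome 5 (x axis), with bases of that gene alone in colour and bases shared with another member in grey. The beta genes have no grey part, and the alpha and gamma genes share between 19.2% and 64.4% of their exonic bases.

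The clustered protocadherins were low or listed at 0 in each of the 3 libraries. FPKM (mapped fragments scaled to transcript length and library size, so that genes can be compared per length) was above 0 for 30, 30 and 32 members in the mock, #1 and #3 libraries. Of the 55 genes, 21 were above 0 in all 3 libraries, 8 in a pair of libraries, 13 in a single library and 13 in none. The highest of the 165 values was 1.33, for PCDHGC3 in sgL1ASP #3, and it was the only value above 1. The FPKM of all 55 genes summed to 4.88, 4.60 and 6.10. TAF7, a subunit of the general transcription factor TFIID whose gene lies between the beta and gamma clusters, was alone at 74.2, 73.5 and 70.1.

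The summed FPKM of the clusters came in the same order in every library. The gamma genes summed to 2.79, 2.70 and 3.61 FPKM. The beta genes summed to 2.04, 1.65 and 2.39. The alpha genes summed to 0.0414, 0.246 and 0.102. The gamma sum was thus highest and the alpha sum lowest in each library, and the alpha values did not reach the lowest beta sum in any of them. The order of gamma and beta did not hold per gene. The median was 0.0819, 0.0409 and 0.0505 for the 22 gamma genes and 0.0478, 0.0494 and 0.0589 for the 18 beta genes. Without PCDHGC3, the gamma sum in sgL1ASP #3 was 2.27, under the beta sum of 2.39. At least 1 library was above 0 for 6 of 15 alpha, 15 of 18 beta and 21 of 22 gamma genes.

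**Figure D2:**
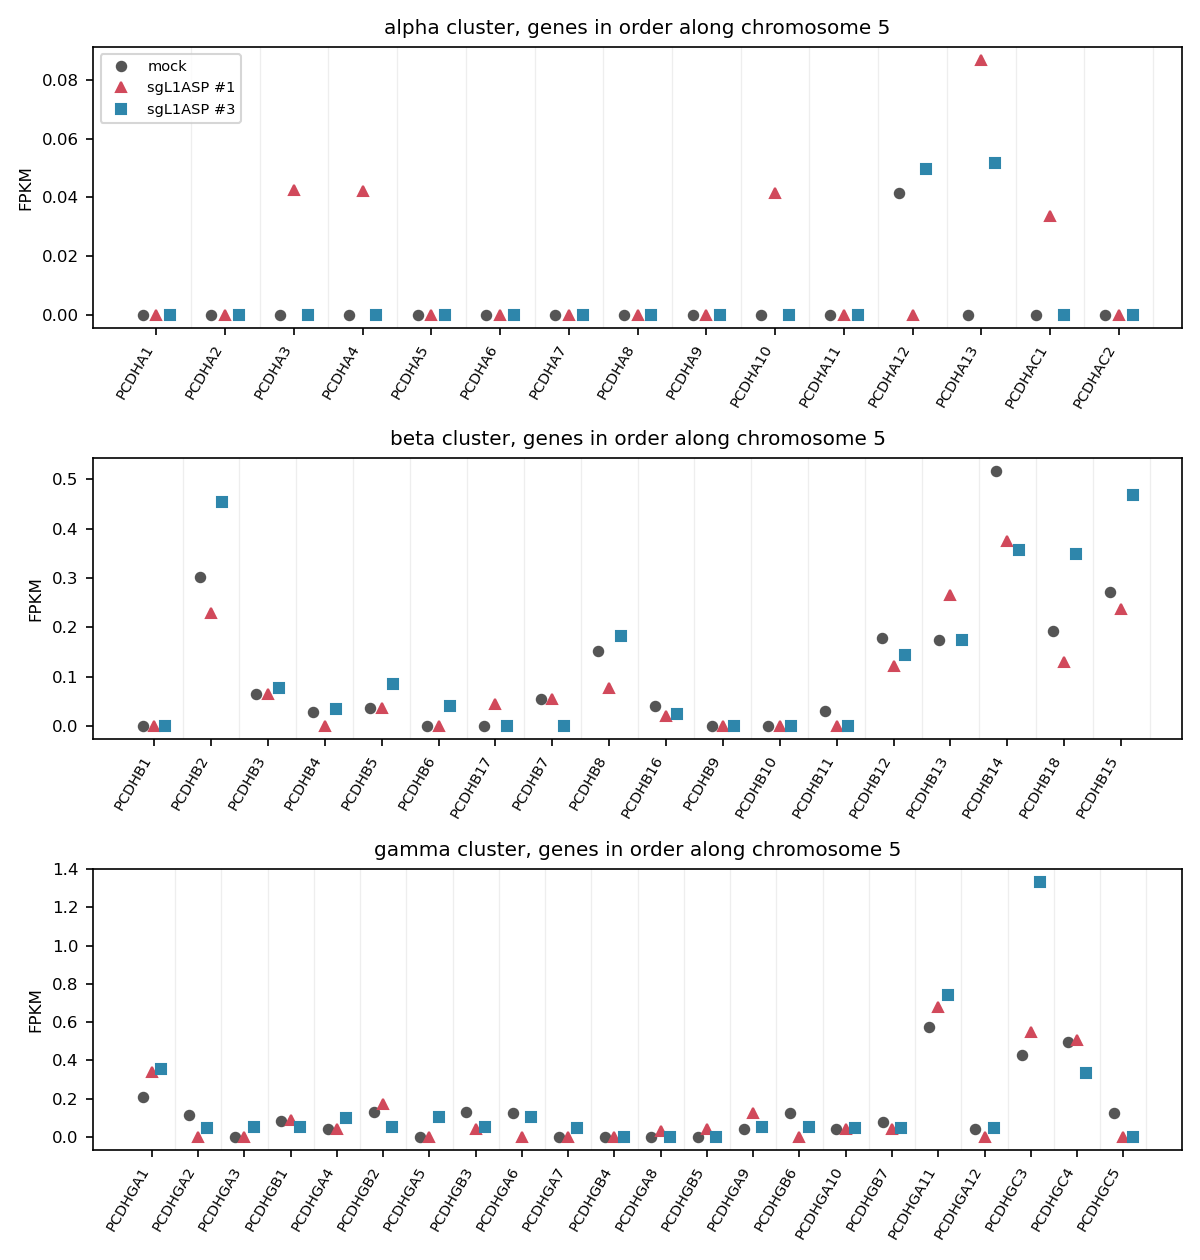
FPKM (y axis, with a scale of its own in each panel) of the 15 alpha, 18 beta and 22 gamma genes in order along chromosome 5 (x axis), with a grey circle for mock, a red triangle for sgL1ASP #1 and a blue square for sgL1ASP #3, 1 library each. The alpha genes stay at or under 0.0869, the beta genes reach 0.517 at PCDHB14 and PCDHGC3 reaches 1.33 in sgL1ASP #3.

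Most values this low stand for a handful of reads. The highest, of PCDHGC3 in sgL1ASP #3, stood for an estimated 24.9 to 52.8 reads, depending on the transcript. The deposited values hold no read counts, but low values of a part of the genes came in steps, as they would where whole fragments are divided by a length and a depth. Among genes above 0 and under 0.3 FPKM in both libraries, 352 of 1476 shared 1 ratio of sgL1ASP #1 to mock. For sgL1ASP #3 to mock it was 336 of 1404. These ratios were taken as the step of 1 read. The value of 1 read was 1.01 times that in mock for sgL1ASP #1 and 1.20 times for sgL1ASP #3, and the depth estimated from genes with 1 transcript was about 10400000, 10300000 and 8700000 reads. With these steps, the 3 values of 37 of the 42 detected members fitted whole numbers of at most 12 to within 1%. Of the 37, 13 were above 0 in a single library, where the smallest number is 1 by construction, whatever the value. PCDHGC5 in mock, for example, entered as 1 but stood for an estimated 3.3 to 5.9 reads, depending on the transcript. The smallest such numbers were at most 1 read in every library for 18 of the 37 genes (these 13 among them), at most 3 for 29, and over 3 for 8. PCDHA12 shows the step: its 0.0414 FPKM in mock and 0.0497 in sgL1ASP #3 both stood for 1 read. The numbers are the smallest that fit, so the true ones may be multiples of them. The remaining 5 genes, PCDHGA4, PCDHGA10, PCDHGB7, PCDHGA11 and PCDHGC3, fitted no such set, and all are gamma genes.

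In the alpha cluster, PCDHA13 was listed at 0 FPKM in mock and was at 0.0869 and 0.0518 with the guides. PCDHA12 was at 0.0414, 0 and 0.0497. The smallest read numbers behind them were 0, 2 and 1 for PCDHA13 and 1, 0 and 1 for PCDHA12. PCDHA3 (0.0425), PCDHA4 (0.0421), PCDHA10 (0.0414) and PCDHAC1 (0.0335) were above 0 in sgL1ASP #1 alone, so the smallest number is 1 for each by construction. Estimated from shorter and longest transcripts, the reads were 1.9 to 2.3 for PCDHA3 and 1.1 to 4.5 for PCDHA4. They were 1.5 to 5.2 for PCDHA10 and 1.3 to 2 for PCDHAC1. PCDHAC1 is one of the C-type genes, which in neurons are expressed broadly rather than by choice of one promoter in each cell. The other C-type alpha gene, PCDHAC2, was listed at 0 in all libraries, as were PCDHA1, PCDHA2, PCDHA5, PCDHA6, PCDHA7, PCDHA8, PCDHA9 and PCDHA11.

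Relative to mock, the alpha sum was 5.95 times as high with sgL1ASP #1 and 2.45 times with sgL1ASP #3. Behind the 3 sums stood 1, 6 and 2 reads, each as the smallest whole number. Of the 6, 4 came from the genes above 0 in sgL1ASP #1 alone, for which 1 is fixed by construction. The exact Poisson 95% intervals of these numbers were 0.0253 to 5.57, 2.202 to 13.1 and 0.242 to 7.22, which cover counting error only. The ratio of sgL1ASP #1 to mock had a counting interval of 0.737 to 279.5 from these 6 reads against 1. The number of reads depends on the transcript each value is taken to stand for. With the shorter annotated transcripts (2427 bases for PCDHA13, for example), the estimate was 8 reads against 1 and the interval was 1.09 to 359.5. With the longest, which has 10557 bases for PCDHA4 and 12358 for PCDHA10, it was 19 against 2 and the interval was 2.32 to 85.2. Whether the alpha sum of sgL1ASP #1 differed from that of mock beyond counting error therefore turned on this choice. For sgL1ASP #3 to mock, all 3 intervals covered 1.

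In the beta cluster, 6 genes held 80.1%, 82.0% and 81.4% of the summed FPKM. PCDHB14 was at 0.517, 0.374 and 0.356 FPKM. PCDHB2 was at 0.302, 0.230 and 0.454, and PCDHB15 at 0.272, 0.236 and 0.468. PCDHB14 was thus highest in mock, while the other two were highest in sgL1ASP #3. The smallest read numbers were 7, 5 and 4 for PCDHB14, 4, 3 and 5 for PCDHB2, and 7, 6 and 10 for PCDHB15. Next came PCDHB18 at 0.193, 0.130 and 0.349, PCDHB13 at 0.174, 0.265 and 0.175 and PCDHB12 at 0.178, 0.120 and 0.143. PCDHB18 is a pseudogene in RefSeq, as is PCDHB17, and both count as members through their names here. Of these 6 genes, PCDHB13 alone was highest in sgL1ASP #1, on 6, 9 and 5 reads as the smallest numbers.

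These genes sit in neighbouring places of the cluster. PCDHB12, PCDHB13, PCDHB14, PCDHB18 and PCDHB15 are the last 5 genes of the beta row in genome order, and PCDHB2 is second in it. The other 12 beta genes were each at or under 0.183 FPKM, and PCDHB1, PCDHB9 and PCDHB10 were listed at 0 in all libraries.

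The beta sum was 0.809 times that of mock in sgL1ASP #1 and 1.17 times in sgL1ASP #3. Without the pseudogenes the ratios were 0.799 and 1.103. PCDHB15 and PCDHB18 were past 1.5-fold in sgL1ASP #3 against mock, with differences of 0.61 in both on the scale of log2(FPKM + 0.1), while in sgL1ASP #1 their differences from mock were -0.15 and -0.35. That scale understates changes of genes this low. For PCDHB15, the ratio of FPKM in sgL1ASP #3 to mock was 1.72 with a counting interval of 0.704 to 3.95, from an estimated 15 and 11 reads, and the interval covers 1.

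In the gamma cluster, 3 genes held 53.9%, 64.1% and 66.8% of the sum. PCDHGA11 was at 0.575, 0.680 and 0.743 FPKM. PCDHGC3 (GRCh37 chr5:140855514-140892544) was at 0.429, 0.547 and 1.33. PCDHGC4 was at 0.498, 0.505 and 0.333. PCDHGC3 and PCDHGC4 are C-type genes, and their order changed between libraries, with PCDHGC4 above PCDHGC3 in mock and below it with either guide. With the longest transcripts, PCDHGC4 stood on an estimated 24, 24 and 13 reads and PCDHGC3 on 20, 26 and 53. The order in mock and in sgL1ASP #1 thus rested on a few reads. PCDHGA1, the first gene of the cluster, was at 0.210, 0.340 and 0.354, and PCDHGB2 was at 0.128, 0.173 and 0.0514. PCDHGA6 was at 0.127, 0 and 0.102. The third C-type gene, PCDHGC5, was at 0.124 in mock and listed at 0 with either guide, and PCDHGB4 was listed at 0 in all libraries.

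By subgroup, which follows the sequence of the variable exon, the 12 PCDHGA genes summed to 1.19, 1.26 and 1.69 FPKM. The 7 PCDHGB genes summed to 0.546, 0.385 and 0.249. The 3 PCDHGC genes summed to 1.05, 1.05 and 1.67. The PCDHGB share of the gamma sum was 19.6%, 14.3% and 6.91%, the lowest of the 3 subgroups in each library.

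PCDHGC3 carried the difference of the gamma sum in sgL1ASP #3. With it, the ratios of the sum to mock were 0.967 for sgL1ASP #1 and 1.29 for sgL1ASP #3. Without it, the other 21 genes summed to 2.36, 2.15 and 2.27 FPKM, which put the ratios at 0.911 and 0.962. For PCDHGC3 alone the ratio of FPKM in sgL1ASP #3 to mock was 3.11, a difference of 1.44 on the log2(FPKM + 0.1) scale, and in sgL1ASP #1 to mock it was 1.27, a difference of 0.29. With the longest annotated transcript (4758 bases), the values stood for an estimated 20, 26 and 53 reads. The counting interval of the ratio of sgL1ASP #3 to mock was then 1.87 to 5.63. With the shorter transcript of 2346 bases it was 1.39 to 7.01, from 25 and 10 reads. The ratio of sgL1ASP #1 to sgL1ASP #3 was 0.410 (0.248 to 0.672). These intervals cover the counting of reads between single libraries, and neither the spread between cultures nor the assignment of reads in the constant exons, of which the 40.1% of its exonic bases that PCDHGC3 shares is made up.

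Intervals were made for the 7 genes with at least 30 estimated reads over the 3 libraries, which gave 21 ratios. The interval left out 1 for 2 of them, both of PCDHGC3, in sgL1ASP #3 against mock and in sgL1ASP #1 against sgL1ASP #3. For PCDHGA11, whose reads were estimated at 28, 32 and 30, the ratio to mock was 1.18 (0.675 to 1.99) in sgL1ASP #1 and 1.29 (0.744 to 2.24) in sgL1ASP #3. The remaining 48 members had fewer reads than that.

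Across the whole set, the question was whether the members moved with either guide, since the study compared the libraries to find genes that follow L1 ASP activity. At the level of 1 FPKM or more on average, 3.55% of all 12830 genes were past 1.5-fold in either direction in sgL1ASP #1 against mock, 3.8% in sgL1ASP #3 against mock and 3.77% in sgL1ASP #1 against sgL1ASP #3. No member had a mean of at least 1, so none could be counted at this level. Without a filter, 2 of the 55 members were past 1.5-fold higher and 5 lower in sgL1ASP #1 than in mock. The background for them is the 4812 genes with a mean above 0 and under 1, of which 17.6% were higher and 17.9% lower. The members counted were 4.76% and 11.9% of the 42 detected members, both under the background. The background was not matched to the members on level, and the pseudocount holds back the lowest genes. PCDHA3, for example, went from 0 to 0.0425 FPKM with a difference of 0.511, under the 0.585 of 1.5-fold. With a pseudocount of 0.01, the shares past 1.5-fold either way were 52.4% of members and 55.4% of the background. The lower shares therefore do not show that the members moved less than other genes.

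In sgL1ASP #3 against mock, 6 members were higher and 5 lower, which is 14.3% and 11.9% of the detected members, against 16.5% and 19.6% of the background. In sgL1ASP #1 against sgL1ASP #3, 3 were higher and 9 lower, which is 7.14% and 21.4%, against 19.7% and 17.5%. The comparisons share libraries, so their counts are not independent. The share of members lower in sgL1ASP #1 than in sgL1ASP #3 was the only one of the 6 above its background. The median difference over the 42 detected members was 0.0025 in sgL1ASP #1 against mock, 0.0013 in sgL1ASP #3 against mock and -0.073 in sgL1ASP #1 against sgL1ASP #3, and that over the background genes was 0.0014, 0 and 0.

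By cluster, the genes past 1.5-fold in sgL1ASP #1 against mock were PCDHA13 (higher), no beta gene, and in the gamma cluster PCDHGA9 (higher) and PCDHGA2, PCDHGB3, PCDHGA6, PCDHGB6 and PCDHGC5 (lower). PCDHGA2 was at 0.117, 0 and 0.0468 FPKM, and PCDHGB6 at 0.127, 0 and 0.0508. Each of PCDHGA2, PCDHGA6 and PCDHGB6 stood on 3 reads in mock as the smallest number and on 0 in sgL1ASP #1. In sgL1ASP #3 against mock, the genes were PCDHA13, PCDHB18, PCDHB15, PCDHGA3, PCDHGA5 and PCDHGC3 (higher) and PCDHB7, PCDHGB2, PCDHGB3, PCDHGB6 and PCDHGC5 (lower). PCDHGA5 was listed at 0 in mock and sgL1ASP #1 and was at 0.103 in sgL1ASP #3. PCDHA13 was higher, and PCDHGB3, PCDHGB6 and PCDHGC5 lower, with both guides, and no member was past 1.5-fold in opposite directions with the guides.

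**Figure D3:**
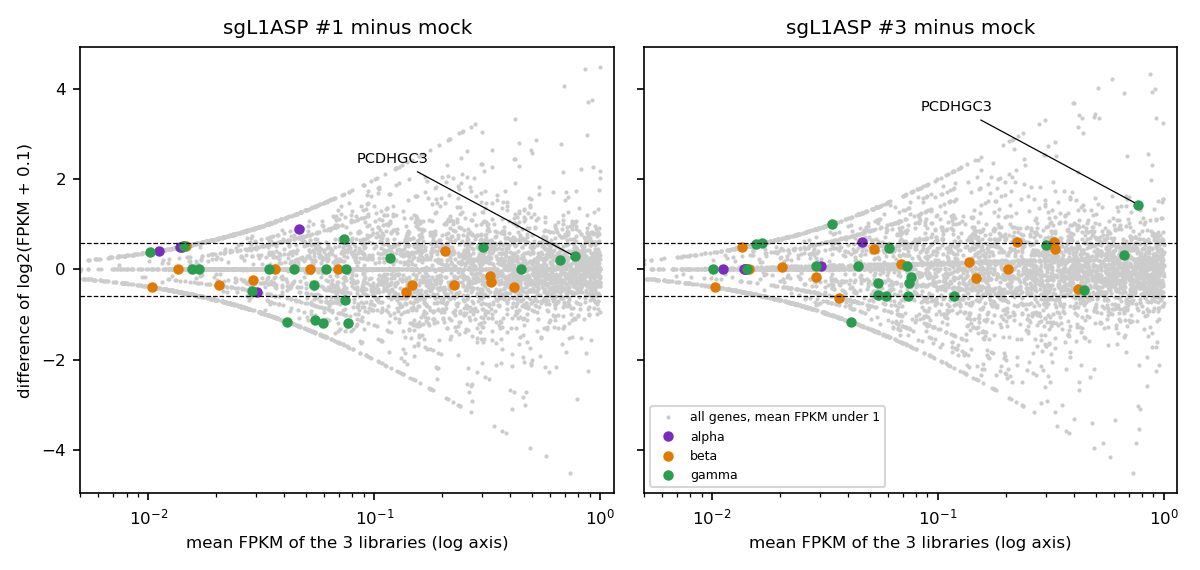
Difference of log2(FPKM + 0.1) from mock (y axis) against the mean FPKM of the 3 libraries (x axis, log scale) for sgL1ASP #1 (left) and sgL1ASP #3 (right). Grey points are all genes with a mean under 1 (those under 0.005 are not drawn), coloured points are the detected alpha, beta and gamma genes, and dashed lines mark 1.5-fold; PCDHGC3, at 0.29 and 1.44, is the member farthest above the lines on the right.

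The study counted a gene as upregulated when it rose stepwise, past 1.5-fold between mock and sgL1ASP #3 and past it again between sgL1ASP #3 and sgL1ASP #1. With the rule applied to ratios of FPKM, with no filter on level and leaving out genes at 0 in a denominator, no member was past both steps in this order of the libraries or in the other 5. Of all genes, 52 were past both steps in this order, beside 53 to 72 in each of the other 5. With zeros allowed as denominators, PCDHA13 was the 1 member past both steps, with 0, 1 and 2 reads as the smallest numbers in mock, sgL1ASP #3 and sgL1ASP #1. That is 2.38% of the 42 detected members, against 2.06% of the background genes. In the reverse order of conditions, from sgL1ASP #1 through sgL1ASP #3 to mock, PCDHGA2 and PCDHGB6 were past both steps, which is 4.76% against 2.31%, and no member was in the other 4 orders.

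The low level was not shared by most genes around the clusters, nor by the genes whose proteins act on them. The non-clustered protocadherins, each a separate gene that shares no constant exons, were at a mean FPKM of at least 1 for 5 of 11 genes. PCDH10 was at 10.1, 12.3 and 12.03 FPKM, PCDH7 at 10.7, 9.07 and 9.96, and PCDH9 at 7.12, 7.41 and 6.66. Each of these 3 genes alone was above the summed FPKM of all 55 clustered genes in every library. Of 15 genes beside or between the clusters, 14 had a mean of at least 1, led by NDUFA2, a subunit of mitochondrial complex I, at 121.9, 120.8 and 141.2, and by TAF7 and the histone deacetylase gene HDAC3. The exception was SLC25A2, a mitochondrial ornithine carrier that lies between the beta and gamma clusters, listed at 0 in mock and sgL1ASP #3 and at 0.159 in sgL1ASP #1.

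All 22 genes that regulate the clusters had a mean of at least 1. The highest was TRIM28, a corepressor that recruits the H3K9 methyltransferase SETDB1, at 205.1, 206.6 and 212.3 FPKM. DNMT1, the maintenance DNA methyltransferase, was at 100.3, 99.2 and 96.7, and the cohesin subunit SMC1A was at 94.5, 88.8 and 89.1. CTCF, which binds the protocadherin promoters, was at 24.8, 22.3 and 21.9. SMCHD1, a chromatin protein that represses the clusters, was at 6.73, 6.94 and 6.74. The 19 genes of the signalling and processing partners, such as the WAVE complex that the tails recruit and the gamma-secretase that cleaves them, also all had a mean of at least 1, led by BRK1, a WAVE complex subunit (171.2, 172.2 and 172.6), and the gamma-secretase subunits PSENEN (109.5, 116.5 and 111.3) and APH1A (94.0, 96.6 and 98.0). In these 4 lists, 0 of the 60 genes with a mean of at least 1 were past 1.5-fold in any of the 3 comparisons, beside the 3.55% to 3.8% of all genes at that level.

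**Figure D4:**
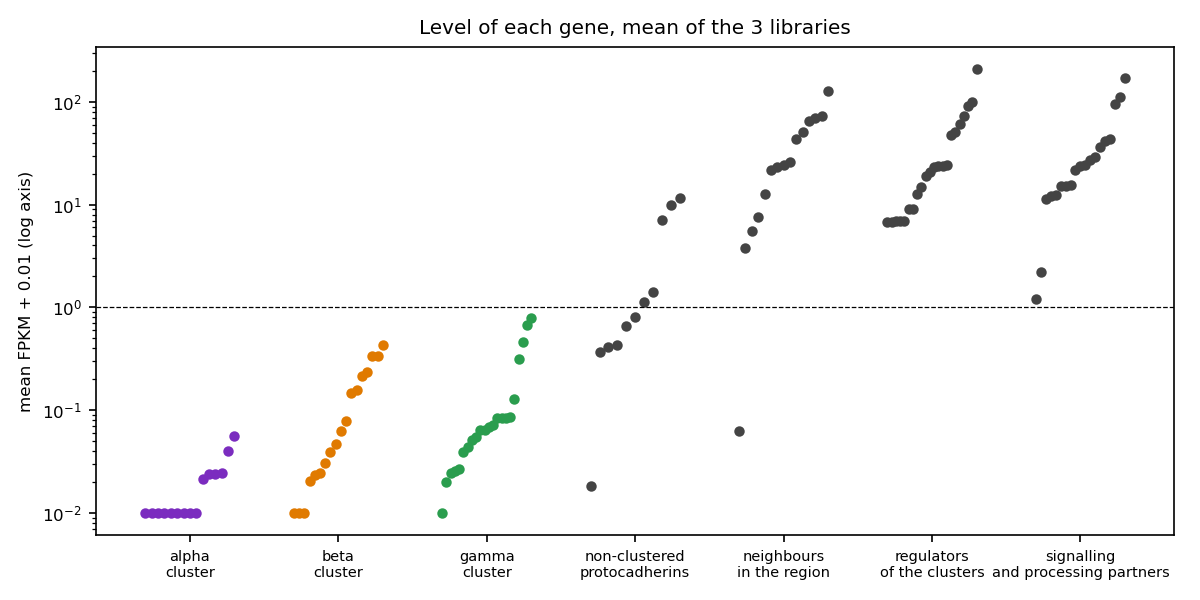
Mean FPKM of the 3 libraries plus 0.01 (y axis, log scale) for each gene of the 3 clusters and of 4 related lists, sorted within each group (x axis), with a dashed line at FPKM 1. All 55 clustered genes lie under the line, while the 22 regulators and 19 partners lie above it.

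The labelled line was checked against its markers. Of 5 genes known in HEK293 cells, 4 had a mean of at least 1, with VIM at 807.4 to 903.5 FPKM, and PAX2 was at 0.522 to 0.658. Of 5 neuronal genes 3 were at that level (SYP, RBFOX3 and SYT1), and of the 5 fibroblast and 5 epithelial genes 1 each (COL1A1 and KRT18). The fibroblast genes DCN and COL1A2, the blood cell genes PTPRC, HBB and CD3E and the epithelial gene KRT14 were listed at 0 in all libraries. The FPKM of all genes summed to 619903, 661449 and 673483.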

How the data were processed

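RNA-seq of HEK293T cells with dCas9-VP64 and mock, sgL1ASP #1 or sgL1ASP #3 was re-analysed, 1 library each. Per the labels and the study's methods, the authors made stranded mRNA libraries, read 75 bases from single ends, mapped them to hg19 with TopHat2 2.0.13, Bowtie2 2.2.3 and SAMtools 0.1.19, and deposited FPKM per gene from Cuffdiff (Cufflinks 2.2.1). The annotation and the scaling between libraries are not given in the sources used here. The number of value columns of no known sample was 0.

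FPKM were used as deposited, and differences were taken as log2(FPKM + 0.1). The filter on mean FPKM of at least 1 left 0 of the 55 members, so counts and medians without a filter are reported, and the alternatives to them were added after seeing the data. Members and gene lists were chosen with earlier results of these data known. All 55 names matched RefSeq and GENCODE 44. For the depth, genes with a single transcript of over 1000 bases were used (955, 1001 and 954 genes, with 41, 61 and 50 in the peak), taking 200 bases for a fragment. Read numbers are the smallest whole numbers that fit, which is always 1 for a gene above 0 in a single library. Intervals are exact, at 95%. The counting steps were tested on simulated data. Named members are the 6 highest of each cluster, the C-type genes, those past 2-fold in any comparison and those at 0 throughout, and others are named in counts or lists after their values were seen. Of the other lists the 3 highest genes are named, with CTCF, SMCHD1, TAF7 and SLC25A2. The scripts ran in Python 3.11.15 (pandas 2.3.3, NumPy 2.4.6, matplotlib 3.10.9, SciPy 1.17.1).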

Additional observations from a re-analysis of the deposited data

How the results depend on the processing

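No paired analysis was possible because there was 1 library per condition. The count of members past 1.5-fold among genes with a mean FPKM of at least 1 was 0 in each comparison, because no member passed that filter, and the medians under it have no value. Without the filter it was 7 in sgL1ASP #1 against mock, 11 in sgL1ASP #3 against mock and 12 in sgL1ASP #1 against sgL1ASP #3, in that order below. These counts followed the pseudocount, at 22, 20 and 30 with 0.01 and 0, 1 and 1 with 1. They were 4, 3 and 3 past 2-fold. Rescaling each library to an FPKM sum of 1000000, which also makes the pseudocount smaller beside the values, gave 17, 15 and 24, while rescaling to the median ratio left them at 7, 11 and 12. As shares of the 42 detected members they were 52.4%, 47.6% and 71.4% with 0.01, beside 55.4%, 54.8% and 55.7% of all genes with a mean above 0 and under 1, and 40.5%, 35.7% and 57.1% at the FPKM sum of 1000000, beside 44.4%, 44.8% and 44.7%. The share in sgL1ASP #1 against sgL1ASP #3 was thus above that of all low genes in these settings, and below it at 28.6% beside 37.2% as reported. Past 2-fold the shares were 9.52%, 7.14% and 7.14%, beside 14.9%, 16.3% and 16.9%. With the pseudocount at 1 they were 0%, 2.38% and 2.38%, beside 1.97%, 2.10% and 2.39%. At the median ratio they were 16.7%, 26.2% and 28.6%, beside 35.5%, 36.1% and 37.2%. The count past both steps of the study's rule was 1 with the pseudocount at 0.01 and 1 with zeros allowed as denominators, PCDHA13 both times. The cluster medians without a filter lay between -0.075 and 0.0026, and between -0.20 and 0.0072 under 36 alternatives. The ratios of summed FPKM to mock moved by less than 1.5-fold under 20 alternatives, although without PCDHGC3 the gamma ratio for sgL1ASP #3 went from 1.29 to 0.962. The smallest read numbers were at most 3 for 29 of the 42 detected members, where a difference of 1 or 2 reads can pass 1.5-fold. For 13 of these 29, above 0 in a single library, the number is 1 by construction and the true one may be larger.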

Other observations

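The 2 names of the family that end in P were left out of the members. PCDHB19P was at 0.194, 0.109 and 0.156 FPKM in the mock, sgL1ASP #1 and sgL1ASP #3 libraries. PCDHGB8P was at 0.108 in mock and listed at 0 with either guide.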
